A study of Homo sapiens with 8 samples.

Results

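Narrow islands of trimethylated lysine 27 of histone H3 (H3K27me3) that were found in the line SUDHL6 and not in the line HT, and that lay near the ends of the autosomes, are described here. The members are the autosomal SUDHL6 H3K27me3 islands narrower than 10000 bp that overlap no HT H3K27me3 island and no HT H3K4me3 island and whose midpoint lies within 10 Mb of a chromosome end. The p end was counted from position 0 and the q end from the largest island end of that chromosome over the 6 lists. There were 3833 members among 13159 SUDHL6 H3K27me3 islands and 58757 islands in all lists, with 1344 at p ends and 2489 at q ends.

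HT and SUDHL6 are established human cell lines from diffuse large B cell lymphoma, and both were sampled untreated in RPMI medium with serum. Each line had 1 ChIP-seq library for H3K27me3, 1 for the methyltransferase EZH2 and 1 for trimethylated lysine 4 of histone H3 (H3K4me3). Input DNA of each line (2 samples) did not enter the comparisons. The labels give no genotype; as background, SUDHL6 is known to carry an activating mutation in the catalytic domain of EZH2. Each line stands for 1 tumour, there was no replicate, and no difference between the lines was tested. The sources used here do not give the read depth, and a stretch with no island may still carry the mark. The lists hold no gene expression, so the lines were not checked against B cell markers.

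Polycomb repressive complex 2 places methyl groups on lysine 27 of histone H3 through its catalytic subunit, EZH2. H3K27me3 spreads over repressed genes and gene-poor stretches between them, and H3K4me3 marks active or poised promoters. The outer parts of many human chromosomes are rich in genes and in CpG dinucleotides, whereas the short arms of the acrocentric chromosomes hold repeats and ribosomal genes to which reads cannot be placed uniquely.

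The SUDHL6 H3K27me3 list had 12510 autosomal islands narrower than 10 kb, of which 4842 lay in the outer 10 Mb. Of these, 936 overlapped HT H3K27me3, 107 overlapped HT H3K4me3 and 34 overlapped both, which left the 3833 members. The members were 79.2% (exact 95% binomial interval 78.0 to 80.3%) of the narrow islands at the ends, and islands over neither HT mark were 71.5% of all narrow autosomal islands. Both shares come from the rule and are a description. A further 167 SUDHL6 islands at the ends had no HT island of either mark but were 10 kb or wider and fell outside the rule.

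Both limits of the rule cut through a continuous range. The widest members measured 9.90 kb, such as the one on chromosome 11 from 293101 to 303000, and the narrowest islands left out measured 10.05 kb, such as the one on chromosome 7 from 2693851 to 2703900. The member farthest from an end lay on chromosome 19 from 9994201 to 9994800, with its midpoint 9.99 Mb from the p end. The nearest island left out for distance lay on chromosome 5 from 170885551 to 170887800, 10.01 Mb from the q end. Positions are hg19, counted from 1.

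The members covered 13.2 Mb, 4.76 Mb of it at p ends and 8.40 Mb at q ends. Islands of any list lay in 18 p ends and 22 q ends. The p ends of chromosomes 13, 14, 15 and 22 held no island of any list, with first islands at 19.03, 19.05, 20.02 and 16.1 Mb. Those of chromosome 21 were 9 HT and 19 SUDHL6 H3K4me3 islands and 1 HT EZH2 island, with no H3K27me3 in either line. All 5 are acrocentric short arms, and whether reads could be placed there was not tested. The p end of chromosome 21 is counted among the 18, and without it the 17 other p ends had 4 to 219 members with a median of 81. Over the 40 ends there were 9.58 members per Mb, against 2.10 islands of the same kind per Mb in the 2440 Mb more than 10 Mb from both ends, a length that includes centromeres and other unmapped stretches. The density was 7.47 per Mb at p ends and 11.3 per Mb at q ends. HT-only narrow islands, chosen by the mirrored rule, numbered 1762 at the same ends and had nearly the same density at the ends and inside (4.41 and 4.45 per Mb). The mirrored rule removed HT islands over SUDHL6 H3K27me3 or H3K4me3, which bears on this, so it does not describe HT H3K27me3 as a whole. The whole HT H3K27me3 list had 2840 of its 16851 autosomal islands in these 400 Mb, and the SUDHL6 list 5120 of 13117.

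Density differed far more between single ends than between p and q ends as classes. At p ends the number of members ran from 0 to 219 with a median of 76.5, and at q ends from 4 to 316 with a median of 90.5. At 15 of the 40 ends there were 100 or more members, and these ends held 68.5% of all members. At 6 ends there were fewer than 10. Members outnumbered HT-only islands at 27 ends and were fewer at 12. The density at the end was above that inside the same chromosome at 12 of 18 p ends and 20 of 22 q ends.

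**Figure D1:**
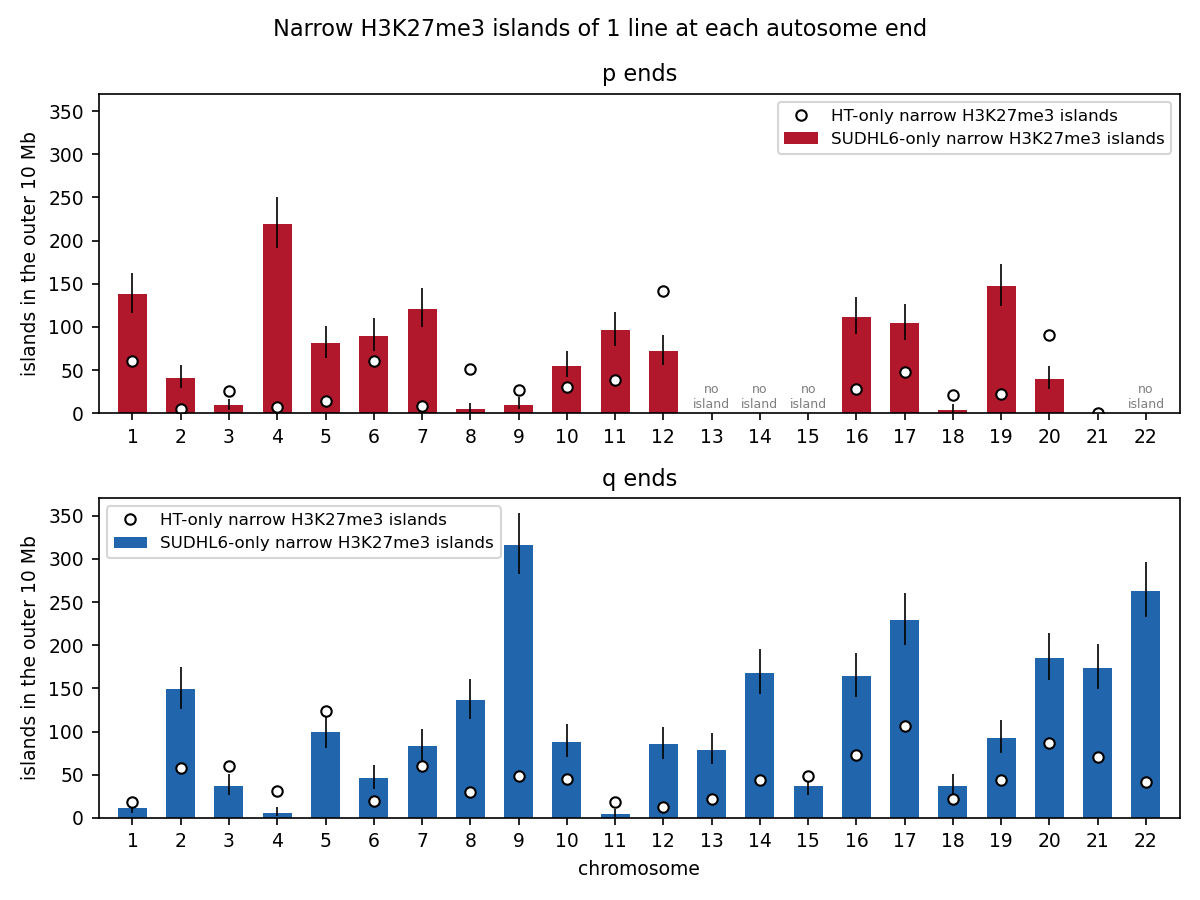
Number of members (bars, with exact Poisson 95% intervals that cover counting error only) and of HT-only narrow H3K27me3 islands (open circles) in the outer 10 Mb of each autosome, p ends above and q ends below. The bars reach 219 at the p end of chromosome 4 and 316 at the q end of chromosome 9, and HT-only islands exceed members at 12 of the 40 ends.

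Among p ends, chromosome 4 had the most members, 219 (exact Poisson 95% interval 191 to 250) over 749 kb. Its outer 10 Mb held 241 SUDHL6 and 15 HT H3K27me3 islands, 25 SUDHL6 and 3 HT EZH2 islands, and 48 SUDHL6 and 44 HT H3K4me3 islands. This end was ranked by its members, so its H3K27me3 counts are a description, and its EZH2 and H3K4me3 counts did not enter the ranking. The rest of chromosome 4 was almost free of such islands, with 15 in 171 Mb inside and 6 at the q end. Chromosome 19 followed with 147 members at its p end, where H3K27me3 islands numbered 194 in SUDHL6 and 58 in HT. Chromosome 1 had 138, with 190 and 101 H3K27me3 islands. Chromosome 7 had 121, with 160 and 28, and EZH2 islands numbered 22 and 9. Chromosome 16 had 112, with 153 and 61. HT-only islands were few on chromosomes 4, 7 and 19, with 7, 8 and 22, and more frequent on chromosomes 1 and 16, with 61 and 28.

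The p ends with fewest members, apart from chromosome 21, were those of chromosomes 18 (4 members), 8 (5), 3 (9) and 9 (10). HT-only islands were more numerous at all of them, with 21, 51, 26 and 27. The H3K27me3 list of SUDHL6 held 4, 5, 12 and 14 islands in all at these ends, and that of HT 22, 52, 32 and 37. H3K4me3 islands were present there in both lines, with 28, 24, 25 and 74 in SUDHL6 and 29, 15, 19 and 30 in HT. Members are part of the SUDHL6 H3K27me3 list and these ends were ranked by them, so the low H3K27me3 counts of SUDHL6 are a description.

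Among q ends, chromosome 9 led with 316 members (282 to 353) over 1229 kb, the highest number at any end. Its outer 10 Mb held 417 SUDHL6 and 134 HT H3K27me3 islands, 56 and 14 EZH2 islands, and 97 and 91 H3K4me3 islands. The p end of the same chromosome had 10 members. Chromosome 22 had 263 members at its q end, with 338 and 96 H3K27me3 islands, 29 and 14 EZH2 islands, and 63 and 75 H3K4me3 islands. H3K4me3 was here the more frequent in HT, unlike both other marks. Chromosome 17 had 229, chromosome 20 had 185 and chromosome 21 had 174. On chromosome 21 only 10 islands of the same kind lay in the 28.1 Mb inside, and on chromosome 13 there were 79 at the q end and 36 in 95.1 Mb inside.

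The q ends with fewest members were those of chromosomes 11 (4), 4 (6) and 1 (11), followed by chromosomes 3, 15 and 18 with 37 each. At the first 3 the whole SUDHL6 H3K27me3 list had 5, 7 and 11 islands, and SUDHL6 EZH2 had 0, 0 and 1. HT had 21, 33 and 21 H3K27me3 and 3, 5 and 7 EZH2 islands there. On chromosomes 1, 4 and 11 the q end was thus among the emptiest. The p end was among the denser ends on chromosomes 1 and 4. On chromosome 11 the p end had 96 members, or 9.6 per Mb, near the mean of 9.58 over all ends.

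On the 18 chromosomes with islands of some list at both ends, the q end had more members on 12 and the p end on 6, and the 2 ends differed 10 times or more on 6. Without chromosome 21 these were 11, 6 and 5 of 17. HT-only islands also favoured the q end on 12, though not always on the same chromosomes: the direction was shared on 12 of 18. SUDHL6 H3K4me3 islands were more frequent at the p end on 12 chromosomes, went the same way as the members on 12, and differed 10 times or more on 0. The p and q ends of a chromosome did not form a common level.

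Across ends the number of members followed the number of SUDHL6 EZH2 islands more closely than that of H3K4me3 islands. Spearman's rho with SUDHL6 EZH2 was 0.90 over 18 p ends and 0.91 over 22 q ends. With SUDHL6 H3K4me3 it was 0.66 and 0.60, with HT H3K4me3 0.74 and 0.75, and with HT-only H3K27me3 islands 0.06 and 0.56. Over the 17 p ends without chromosome 21 the values were 0.89 for SUDHL6 EZH2, 0.63 and 0.69 for SUDHL6 and HT H3K4me3, and -0.11 for HT-only islands. These are descriptions with no test, since ends share their libraries and their gene content. H3K4me3 islands stand here for promoters, and the part of promoter density in the number of members was not tested.

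**Figure D2:**
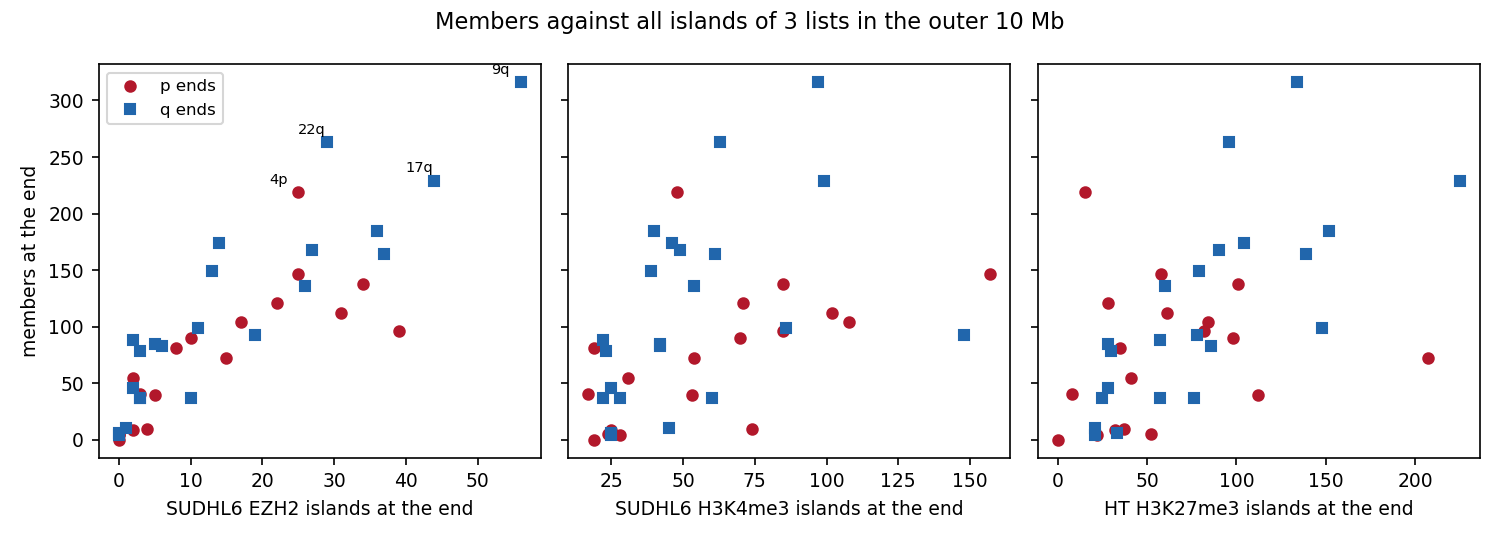
Number of members at each end against all SUDHL6 EZH2, SUDHL6 H3K4me3 and HT H3K27me3 islands in the same outer 10 Mb, each point 1 end (18 p ends, 22 q ends). The points rise most evenly with SUDHL6 EZH2 (rho 0.90 and 0.91), and the p end of chromosome 4 stands at 219 members with 15 HT H3K27me3 islands.

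Within the outer 10 Mb the members lay mostly in the outer 5 Mb. These held 67.3% (64.7 to 69.8%) of members at p ends and 71.4% (69.5 to 73.1%) at q ends, with median distances of 3.22 and 3.28 Mb. For HT-only islands the shares were 49.6% (45.8 to 53.5%) and 45.2% (42.3 to 48.3%). This was near an even spread at p ends and below it at q ends. The mirrored rule bears on these HT-only shares, since it removed HT islands over SUDHL6 H3K27me3. More members lay in the outer than in the inner 5 Mb at 13 of the 17 p ends with members and at 19 of 22 q ends. The gradient was therefore not carried by a few chromosomes.

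The highest density was reached between 1 and 2 Mb from the end and not at the end itself. At p ends it was 11.4 members per Mb and end in the first Mb, 15.6 between 1 and 2 Mb, 8.50 between 2 and 3 Mb and 10.4 between 3 and 4 Mb, and then 4.33 between 4 and 5 Mb. At q ends the density stayed high for longer, with 13.6, 19.7, 18.3 and 16.0 between 0 and 4 Mb, and 13 between 4 and 5 Mb. It then dropped to 6.77 between 5 and 6 Mb and 4.86 between 9 and 10 Mb. Single ends weighed on the inner bins: between 8 and 9 Mb of the p ends, 53 of 105 members lay on chromosome 4. SUDHL6-only islands just beyond the 10 Mb limit had densities of 5.56 per Mb at p ends and 3.82 at q ends, so the profile did not step down at the limit.

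**Figure D3:**
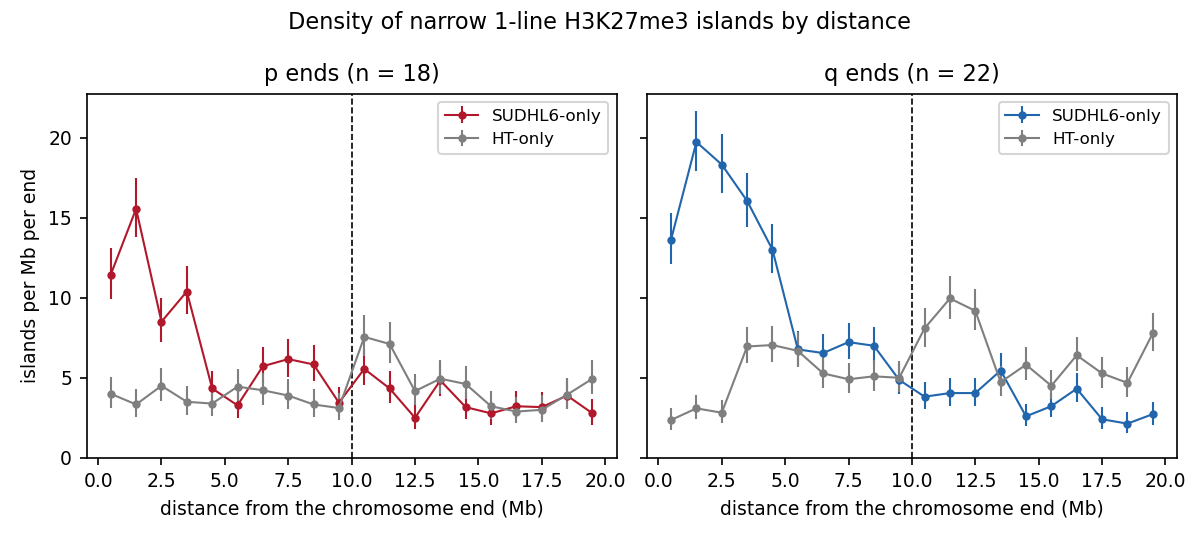
SUDHL6-only (red, blue) and HT-only (grey) narrow H3K27me3 islands per Mb and end in bins of 1 Mb out to 20 Mb, for 18 p and 22 q ends, with exact Poisson 95% intervals for counting error; the dashed line is the 10 Mb limit. SUDHL6-only islands peak between 1 and 2 Mb, at 15.6 and 19.7, and HT-only islands show no such peak near the end. The rule for HT-only islands removed those over SUDHL6 H3K27me3 or H3K4me3.

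The outermost 0.5 Mb held 83 members over the 18 p ends and 127 over the 22 q ends. The outermost member at a p end lay on chromosome 17 from 9901 to 11700, its midpoint 10.8 kb from position 0. At q ends it lay on chromosome 16 from 90262501 to 90264450, an island that itself sets the end of that chromosome in these lists.

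The median member was 3000 bp wide at p ends and at q ends, with quartiles of 1800 and 4800 bp at p ends and of 1800 and 4500 bp at q ends. Islands of the same kind inside chromosomes had a median of 2550 bp, and narrow SUDHL6 islands at the ends that overlapped HT islands one of 3750 bp. Members of 5 kb or wider were 22.99% at p ends, 19.1% at q ends and 14.4% inside. Those below 1 kb were 4.99%, 4.74% and 6.55%. The median width at the ends exceeded that inside on 16 of 22 autosomes, was smaller on 4 and equal on 2. The widths of all these groups overlapped over nearly the whole range, with minima from 150 to 600 bp and a maximum of 9900 bp in each.

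The ends differed in width as well as in number. The median was 4725 bp at the p end of chromosome 6, 4500 bp at that of chromosome 7 and 4125 bp at that of chromosome 11. At the q ends of chromosomes 3 and 1 it was 1650 and 1500 bp. Median width was also lower in the innermost bin than near the end, going from 3450 bp in each of the first 3 Mb of the p ends to 2175 bp between 9 and 10 Mb, and from 3300 bp between 1 and 2 Mb of the q ends to 2100 bp between 9 and 10 Mb. The decline was uneven, with 2850 bp in the first Mb of the q ends and 3150 and 2925 bp between 8 and 9 Mb of the p and q ends.

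The score is the authors' own whole number per island, and what it counts is not stated. It was divided by width and used only within the SUDHL6 H3K27me3 list. The median score per kb was 20.8 at p ends, 20.6 at q ends and 19.8 inside, and quartiles ran from 18.2 to 24.1, from 18.2 to 23.6 and from 17.5 to 22.7. It was higher at the ends than inside on 17 of 22 autosomes, lower on 3 and equal on 2. The shift is small beside the spread among islands. At p ends the median was 22.2 and 22.6 in the first and the second Mb and 19.2 between 9 and 10 Mb. The p ends of chromosomes 7 and 11, which had wide members, also had high medians of 23.2 and 23.1.

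**Figure D4:**
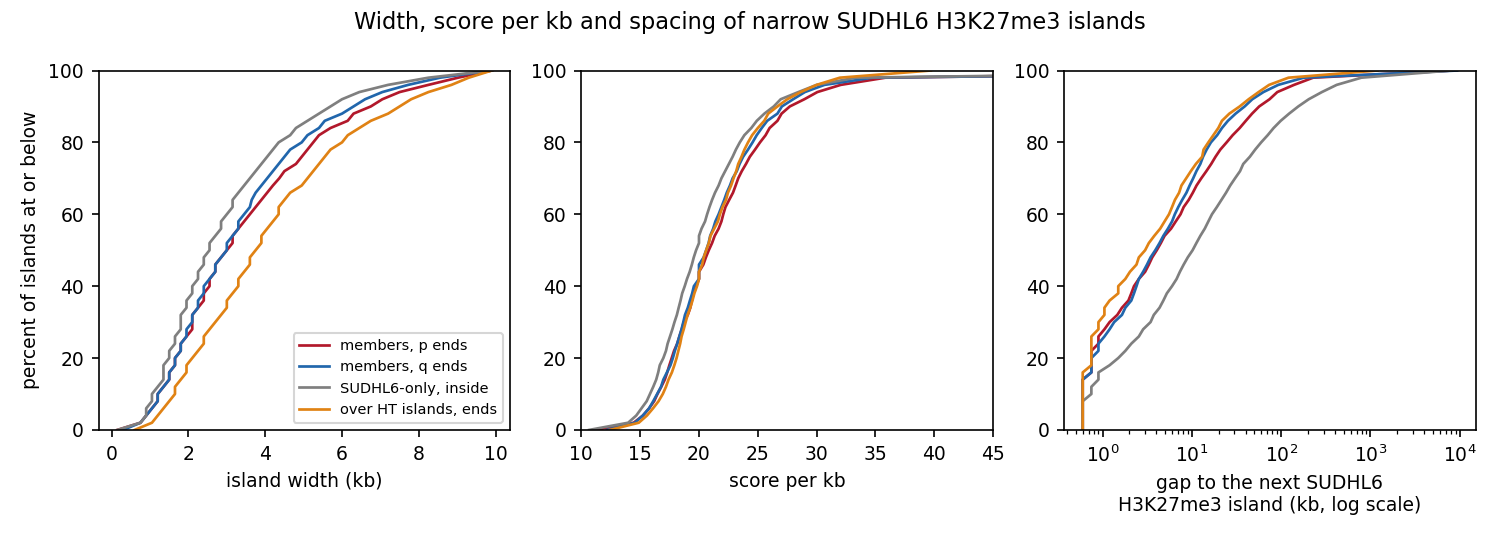
Cumulative percent of islands by width, by score per kb and by gap to the next SUDHL6 H3K27me3 island (log axis), for members at p ends, members at q ends, SUDHL6-only narrow islands inside chromosomes and narrow SUDHL6 islands at the ends that overlap HT islands. The curves for width and score per kb lie close together, with medians of 3000, 3000, 2550 and 3750 bp, and the gaps of the islands inside are longer, with a median of 10.2 kb against 4.05 and 3.90 kb for members.

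The 5 members with the highest score per kb at each kind of end were 1.5 kb wide or narrower, which a ratio to width favours. None of these 10 overlapped EZH2 or H3K4me3 of SUDHL6. Over all members only 7.46% and 0.574% did, so this count is near the background. At q ends the leading one lay on chromosome 12 from 132926101 to 132926850, 750 bp wide with a score of 65, or 86.7 per kb. The next lay on chromosome 21 from 43374301 to 43375500, with 66.7 per kb, and on chromosome 7 from 154628701 to 154629300, with 63.3 per kb. At p ends the leading one was a single window of 150 bp on chromosome 2 from 9237751 to 9237900, with a score of 12 and so 80.0 per kb. It was followed by islands of 1500 bp on chromosome 12 from 3306751 to 3308250 (53.3 per kb) and on chromosome 16 from 209701 to 211200 (52.0 per kb). They were ranked by this score, so their values are a description only.

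Of the 10 widest members ranked, 5 at p and 5 at q ends, 7 had another SUDHL6 H3K27me3 island within 5 kb. On chromosome 11 from 293101 to 303000 the next island was 0.90 kb away, and on chromosome 5 from 1223701 to 1233450 it was 0.75 kb away. On chromosome 16 from 85412101 to 85421850 the gap was 0.60 kb. Others stood alone, such as that on chromosome 16 from 88291651 to 88301550, with the next island 21.6 kb away.

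Members were closely spaced. The median gap to the next SUDHL6 H3K27me3 island of any kind was 4.05 kb at p ends and 3.90 kb at q ends, against 10.2 kb inside chromosomes, and it was shorter at the ends on 19 of 22 autosomes. The next island lay within 5 kb for 54.2% (51.5 to 56.9%) of members at p ends, 54.6% (52.6 to 56.5%) at q ends and 36.8% (35.5 to 38.1%) inside. An island of 10 kb or wider was that neighbour for 5.21%, 3.21% and 1.95% of all islands in these sets. Islands that wide were 278 of all 5120 autosomal SUDHL6 H3K27me3 islands in the outer 10 Mb. Most close neighbours were thus narrow, as were most islands of the list. Spacing and density are not independent measures.

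Members joined by gaps of at most 5 kb formed 239 runs at p ends and 451 at q ends, which held 45.2% (42.6 to 47.9%) and 45.8% (43.9 to 47.8%) of members. Inside chromosomes 27.2% (26.0 to 28.5%) of SUDHL6-only islands lay in runs, and for HT-only islands at the ends it was 25.6% (23.6 to 27.7%). The longest run had 11 members and spanned 64.05 kb of chromosome 5 from 1136101 to 1200150. Of this span 71.2% lay under SUDHL6 H3K27me3 and 11.7% under SUDHL6 EZH2, and no HT island of H3K27me3, EZH2 or H3K4me3 lay in it. A run of 8 members on chromosome 4 from 8119801 to 8173650 was likewise free of HT islands, with 14.5% under SUDHL6 EZH2.

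At q ends the longest runs had 8 members. The one on chromosome 20 from 61849951 to 61902300 had 37.2% of its 52.35 kb under SUDHL6 EZH2 and 3.72% under HT H3K27me3, which lay between members. The one on chromosome 8 from 143648551 to 143697150 had 22.2% under SUDHL6 EZH2 and no HT island of any list. A run of 7 on chromosome 9 from 137676301 to 137732850 was covered to 83.6% by SUDHL6 H3K27me3 with no EZH2 island of either line. Such runs count as separate narrow islands because the calling joined only gaps up to 450 bp. With islands within 5 kb joined in all lists and the rule applied anew, the number of members was 1986. This number leaves out joined islands that reached 10 kb or overlapped a joined HT island, so it does not count runs and single members.

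Dense stretches of 1 Mb held a large share of all members. Bins were cut at whole Mb of the chromosome, so those at the edges of a q end can be partial. Bins with 20 or more members numbered 20 over the 180 Mb of p ends, with 44.5% of the members there. At q ends they numbered 52 over 220 Mb, with 65.0%. The densest lay on chromosome 9 between 137 and 138 Mb, with 61 members over 277 kb. There SUDHL6 had 78 H3K27me3 islands over 440 kb, HT had 14 over 48.0 kb, EZH2 had 11 in SUDHL6 and 0 in HT, and 1 H3K4me3 island was called in each line. On chromosome 22 between 48 and 49 Mb all 49 H3K27me3 islands of SUDHL6 were members, HT had 2, and none of the members overlapped EZH2. The stretch on chromosome 8 between 143 and 144 Mb had 51 members and that on chromosome 2 between 241 and 242 Mb had 46.

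At p ends the densest stretch was on chromosome 4 between 8 and 9 Mb, with 53 members, 58 SUDHL6 islands and 1 HT island of H3K27me3. The neighbouring Mb, from 7 to 8, had 41 members and no HT H3K27me3 island. Chromosome 16 between 1 and 2 Mb had 39 members and differed in its surroundings, with 12 H3K4me3 islands in each line and 11 SUDHL6 EZH2 islands. There 13 of the 39 members overlapped SUDHL6 EZH2, against 2 of 53 on chromosome 4 between 8 and 9 Mb. HT EZH2 had 0 islands in each of the 10 stretches ranked, 5 at p and 5 at q ends. Its list was sparse, with 174 islands in 180 Mb of p ends and 246 in 220 Mb of q ends. The stretches were also ranked by islands without HT H3K27me3, which bears on this. The share of all stretches without HT EZH2 is not given here.

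SUDHL6 EZH2 was over few members. It overlapped 105 at p ends, 7.81% (6.43 to 9.38%), and 181 at q ends, 7.27% (6.28 to 8.36%). The share over all narrow autosomal SUDHL6 H3K27me3 islands was 8.35%, so the members as a set stood near the background. Narrow SUDHL6 islands at the same ends that overlapped HT islands had 20.2% (17.8 to 22.8%), and SUDHL6-only islands inside chromosomes had 4.30% (3.76 to 4.89%). The members exceeded those inside by 3.16 percentage points (2.16 to 4.19), but with islands within 5 kb joined the difference was 0.0656 points. It was positive on 14 of 22 autosomes and negative on 8. All these intervals cover counting error only, and SUDHL6 EZH2 was itself dense at the ends, with 589 of its 1500 autosomal islands in the outer 10 Mb.

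Overlap with EZH2 was more frequent for wider members. The share was 5.95% (3.01 to 10.4%) for members narrower than 1 kb, 5.29% (3.94 to 6.94%) from 1 to 2 kb, 5.06% (3.64 to 6.83%) from 2 to 3 kb, 7.24% (5.80 to 8.89%) from 3 to 5 kb and 13.1% (10.8 to 15.7%) from 5 to 10 kb. A wider island can meet another by width alone. Islands inside rose from 2.39% (1.04 to 4.65%) to 7.60% (5.79 to 9.75%) over the same classes, and those at the ends over HT islands reached 27.5% (22.6 to 32.9%). With both kinds of end pooled, members lay between these groups in each class from 1 kb upwards, but at q ends alone members of 2 to 3 kb had 4.72%, against 4.78% inside.

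**Figure D5:**
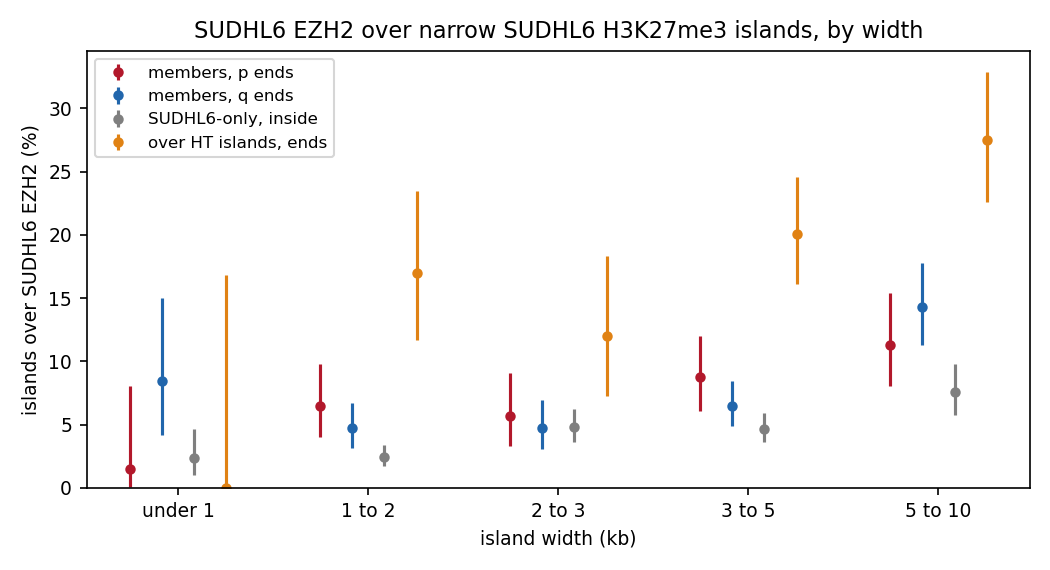
Percent of narrow SUDHL6 H3K27me3 islands over SUDHL6 EZH2 by width class, for members at p and q ends, SUDHL6-only islands inside chromosomes and islands at the ends over HT islands, with exact binomial 95% intervals. From 5 to 10 kb the values are 11.3%, 14.3%, 7.60% and 27.5%; the class below 1 kb holds only 20 islands in the last group.

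The share also rose with the score per kb. SUDHL6-only islands were split into 4 classes by score per kb at the quartiles of these islands. The share was 2.92%, 4.76%, 8.06% and 12.7% at p ends and 3.64%, 7.09%, 6.58% and 10.7% at q ends, from the lowest to the highest. Inside chromosomes it was 2.37%, 4.69%, 5.23% and 5.20%, so the highest class did not stand above the one before it there. This difference was not tested.

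Where EZH2 was present it usually covered most of the member. The median covered part was 88.9% at p ends and 83.3% at q ends, and 48 and 65 members were covered whole. Members with EZH2 had a median width of 3900 bp, against 2850 bp for those without, and a median score per kb of 22.4 against 20.6. Of the SUDHL6 EZH2 islands at the ends, 88 of 242 at p ends (36.4%, 30.3 to 42.8%) and 147 of 347 at q ends (42.4%, 37.1 to 47.8%) touched a member. For 62 and 108 of them members were the only H3K27me3 islands met. HT EZH2 overlapped 3 of the 88 and 3 of the 147. The rule removed islands over HT H3K27me3, which bears on these counts. The share over all SUDHL6 EZH2 islands at the ends is not given here, so the counts are a description. EZH2 islands that touched members were a little wider than all EZH2 islands there, with medians of 6375 bp at p ends and 6000 bp at q ends against 5400 bp at both.

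EZH2 was unevenly spread over the ends. At the p end of chromosome 16 it was over 23 of 112 members (20.5%), at the q end of chromosome 8 over 23 of 136 (16.9%) and at the p end of chromosome 1 over 18 of 138 (13.04%). At the p end of chromosome 6 it was over 0 of 90 and at the q end of chromosome 7 over 0 of 83. Both of those ends had SUDHL6 EZH2 islands, 10 and 6, which lay elsewhere. By distance the share was 13.2% (9.48 to 17.8%) between 1 and 2 Mb and 13.1% (8.17 to 19.5%) between 2 and 3 Mb of the p ends. At q ends it was highest between 1 and 2 Mb, with 13.6% (10.5 to 17.2%). Between 9 and 10 Mb it was 1.61% (0.0408 to 8.66%) at p ends and 3.74% (1.03 to 9.30%) at q ends.

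At p ends, 4 of the 5 members with EZH2 and the highest scores lay on chromosome 11. One spanned 2173501 to 2182650 (9.15 kb, score 315) and another 2183251 to 2191650 (8.40 kb, score 275), with 0.60 kb between them, and SUDHL6 EZH2 covered 100% of both. HT H3K27me3 came within 2.10 kb of the first without touching it. Another, from 280501 to 288900 (score 314), had 83.9% under SUDHL6 EZH2 and 3.57% under SUDHL6 H3K4me3, so all 3 SUDHL6 marks met there. At q ends the leading ones lay on chromosome 9 from 140119801 to 140128050 (score 281, 83.6% under EZH2), on chromosome 8 from 144946501 to 144955650 (score 260, 100%) and on chromosome 14 from 105616801 to 105626100 (score 240, 72.6%). HT EZH2 covered 0% of each of these.

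HT EZH2 overlapped 8 members at p ends (0.595%, 0.257 to 1.17%) and 15 at q ends (0.603%, 0.338 to 0.992%), against 4.28% of all narrow autosomal SUDHL6 H3K27me3 islands. The rule removed islands over HT H3K27me3, which bears on this share. SUDHL6-only islands inside chromosomes had a like share of 0.743% (0.526 to 1.02%). Islands at the ends over HT islands had 11.9% (9.96 to 14.1%). EZH2 of both lines was present at 6 members, 3 at each kind of end. A distance of up to 10 kb to HT EZH2 was found for 3.65% of members at p ends and 3.86% at q ends.

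All 8 of these members at p ends and the 5 with the highest score at q ends were looked at singly, and 4 of these 13 lay within 1 kb of an HT H3K27me3 island. On chromosome 16 from 218401 to 221100 HT EZH2 covered 66.7% of the member, HT H3K27me3 began 0.45 kb away, and the nearest SUDHL6 EZH2 island was 88.95 kb away. On chromosome 16 from 2196751 to 2200350 HT EZH2 covered 75% and SUDHL6 EZH2 100%, with HT H3K27me3 43.05 kb away. On chromosome 11 from 537451 to 539100 EZH2 of both lines covered 100% and SUDHL6 H3K4me3 18.2%. At q ends the member with HT EZH2 and the highest score lay on chromosome 16 from 88548301 to 88555950, with 9.80% under HT EZH2, 78.4% under SUDHL6 EZH2 and HT H3K27me3 0.30 kb away. One farther along, from 89985151 to 89988750, had 100% under HT EZH2 and no SUDHL6 EZH2.

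SUDHL6 H3K4me3 overlapped 11 members at p ends (0.818%, 0.409 to 1.46%) and 11 at q ends (0.442%, 0.221 to 0.789%). The share of all narrow autosomal SUDHL6 H3K27me3 islands was 2.37%, and that of SUDHL6-only islands inside was 1.39% (1.09 to 1.75%). Islands at the ends over HT islands had 5.85% (4.48 to 7.48%). The rule bears on these values, since it removed islands over HT H3K4me3. H3K4me3 and EZH2 of SUDHL6 were together on 4 members.

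Where H3K4me3 met a member it mostly covered a small part of it. On chromosome 6 from 161049001 to 161058450 (9.45 kb, score 234) it covered 14.3%, and on chromosome 17 from 78459451 to 78467400 it covered 3.77%. On chromosome 7 from 6544201 to 6549450 it covered 40.0%, the most among the 10 such members ranked by score. On chromosome 9 from 140144251 to 140149050 the member had 93.8% under SUDHL6 EZH2, 15.6% under HT EZH2 and 12.5% under SUDHL6 H3K4me3, and it abutted an HT H3K4me3 island with no shared base.

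Most members lay far from H3K4me3, as did SUDHL6-only islands inside chromosomes. The median gap to the nearest SUDHL6 H3K4me3 island was 76.3 kb at p ends and 99.8 kb at q ends, and to the nearest HT H3K4me3 island 82.0 and 103 kb. Inside chromosomes SUDHL6-only islands had medians of 71.6 and 83.9 kb. A SUDHL6 H3K4me3 island lay within 10 kb of 12.4% (10.6 to 14.2%) of members at p ends, 8.12% (7.07 to 9.26%) at q ends and 10.5% (9.65 to 11.3%) of islands inside. The gap varied along the ends, with a median of 223 kb between 3 and 4 Mb of the q ends and of 44.3 kb between 2 and 3 Mb of the p ends.

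The nearest HT H3K27me3 island was a median of 40.0 kb away at p ends, 25.9 kb at q ends and 16.5 kb inside. It lay within 1 kb of 3.57% (2.64 to 4.71%), 4.38% (3.61 to 5.26%) and 6.76% (6.09 to 7.49%), and within 10 kb of 22.1% (19.9 to 24.4%), 27.2% (25.4 to 29.0%) and 37.8% (36.4 to 39.1%). Most members thus had no HT H3K27me3 island within 10 kb. Within 50 kb there was one for 54.5% of members at p ends, 66.0% at q ends and 73.8% of islands inside. The rule excluded overlap with HT H3K27me3, which bears on these distances, so they are a description. With HT islands also excluded up to 5 kb away, 3059 members were left. The nearest SUDHL6 EZH2 island was a median of 87.1 kb away at p ends, 104 kb at q ends and 239 kb inside. Of all members, 91.1% at p ends and 91.9% at q ends met no island of SUDHL6 EZH2, HT EZH2 or SUDHL6 H3K4me3.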

How the data were processed

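ChIP-seq islands of HT and SUDHL6 were used, 1 list per library. Per the submitters' processing notes SICER and hg19 were used, and settings in the deposited names are 150 bp for the window, 450 bp for the gap and 1E-7 for the FDR. Not given in the sources used here: aligner, read filters, control in calling, depth. The deposited score per island is the authors' whole number, of unstated meaning, and was compared only within its list.

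Any shared base (1 bp or more) counted as overlap, with islands as the units and no test, since each group had 1 library. Shares have exact (Clopper-Pearson) 95% intervals and counts exact Poisson intervals, for counting error only. Gaps are the bases between 2 islands. The choice of members was right for 100% of 11000 simulated islands. The members, the regions named (the 5 first per rule and kind of end, by members, score, width or overlap, and all over HT EZH2 where 10 or fewer) and the alternatives were chosen with earlier results of these data known; runs of members and gap distances were added later. No gene annotation or genome of hg19 was used, so no gene is named and no sequence is shown. Python 3.11.15, numpy 2.4.6, pandas 2.3.3, scipy 1.17.1 and matplotlib 3.10.9 were used.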

Additional observations from a re-analysis of the deposited data

How the results depend on the processing

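Under 9 alternatives the 12 main values gave 108 values, of which 61 stayed within the 95% interval of the main value (for the number of members, within 1.5 times) and 47 did not. These intervals differ in kind. For the median densities they come from ranked values over ends and are wide, 1 to 11.2 per Mb at p ends and 3.7 to 16.8 at q ends. A median at p ends of 3.55 per Mb, among the 50% of lists with the highest score, was thus counted as having stayed (main 7.65). Members stayed denser at the ends than inside and more numerous than HT-only islands under every one of the 9. The difference in SUDHL6 EZH2 between ends and inside did not turn negative. With islands within 5 kb joined it nearly vanished, at 0.0656 points, and no interval was computed for that value. With an overlap of at least 50% the median width was 3150 bp, the shares with SUDHL6 EZH2 and H3K4me3 6.31% and 0.0949%, and SUDHL6-only islands were 87.1% of narrow islands at the ends. With no HT island within 5 kb the density ratio of ends to inside was 5.08 (main 4.57), the ratio to HT-only islands 2.31 (main 2.18), the shares with SUDHL6 EZH2, HT EZH2 and SUDHL6 H3K4me3 6.08%, 0.262% and 0.360%, and the SUDHL6-only share 63.2%. Among the 50% of lists with the highest score there were 1922 members, a density ratio of 5.93, a median of 3.4 per Mb at q ends (main 9.05), a width of 4650 bp, 21.03 per kb, 8.43% with SUDHL6 EZH2, 0.208% with SUDHL6 H3K4me3, an EZH2 difference of 4.58 points, a SUDHL6-only share of 74.5% and a ratio to HT-only islands of 2.58. Among the 50% with the highest score per kb the values were 2077 members, a density ratio of 5.60, 2700 bp, 23.5 per kb, 9.34% with SUDHL6 EZH2 and a ratio to HT-only islands of 2.56. With ends of 5 Mb the density ratio was 5.83, the median at p ends 11.4 per Mb (main 7.65), the score per kb 21.2, the EZH2 share 8.99% and difference 4.77 points, the SUDHL6-only share 80.6% and the ratio to HT-only islands 3.24. For islands narrower than 5000 bp these were a density ratio of 4.25, 2400 bp, an EZH2 share of 6.004%, a SUDHL6-only share of 81.2% and a ratio to HT-only islands of 1.87. For islands of at least 1 kb the score per kb was 20.4, and without chromosome 17, the autosome with the largest number of members, the SUDHL6-only share was 80.5%. With islands within 5 kb joined there were 1986 members, a density ratio of 3.48, 2700 bp, 19.4 per kb, an EZH2 share of 3.02%, an EZH2 difference of 0.0656 points and a ratio to HT-only islands of 1.52. The cause of this fall was not tested. Leaving out the p end of chromosome 21, an alternative chosen after seeing the data, gave a median of 8.1 per Mb at p ends and a density ratio of 4.69.

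No paired analysis was possible because each line and antibody had 1 library. Depth and the spread between libraries of a line are not known, so the line and the calling depth cannot be told apart.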

Other observations

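At q ends HT-only narrow islands were least dense in the first 3 Mb, with 2.36, 3.09 and 2.82 per Mb and end. They reached 8.09, 9.95 and 9.18 per Mb between 10 and 13 Mb, where SUDHL6-only islands had 3.82, 4.05 and 4.05. At p ends HT-only islands had 4 per Mb in the first Mb and 7.56 between 10 and 11 Mb. HT-only islands exclude those over SUDHL6 H3K27me3 or H3K4me3, so the 2 profiles are not independent and the contrast is a description. The profile of the whole HT H3K27me3 list is not given here. The distances were looked at after the values were seen.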
